A study of Mus musculus with 6 samples.

Results

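The genes of the nuclear pore complex and of the transport receptors that carry cargo through it were followed in E0771 mouse breast carcinoma cells with and without knockdown of lamin A/C. A list of 58 genes, 30 nucleoporins and 28 transport factors, was matched by exact symbol to a table of transcript counts for 10520 genes. Of these 58, 54 were in the table and 48 had enough counts to be tested, among 8969 genes tested in all. Nup35, Nup214, Ipo7 and Xpo7 were not analysed here.

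E0771 is a breast adenocarcinoma line from the C57BL/6 mouse strain. The control cells (shControl, 3 libraries) carried the empty TRC2 pLKO.5-puro vector, and the knockdown cells (shLmna, 3 libraries) carried a vector with a short hairpin RNA against the lamin A/C transcript. Both were transduced with lentivirus, selected in puromycin at 3 µg/ml and expanded as a population, so each library averages over cells that may differ in knockdown, and the control vector holds no hairpin. Transcripts were counted by MARS-seq, a method that sequences near the poly(A) tail and counts each captured molecule once through its unique molecular identifier (UMI). In the submitters' titles the shLmna libraries are named shRNA4, and which of the study's lamin A/C hairpins this is was not settled. No label states that replicates came from separate cultures, so p-values measure the spread between these libraries, which may be technical. In bulk RNA, fewer cells that express a gene and less RNA per cell cannot be told apart.

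The nuclear pore is a channel built from many copies of proteins called nucleoporins, arranged in rings that hold the membrane open, a meshwork of phenylalanine-glycine repeats that fills the channel, filaments on the cytoplasmic side and a basket on the nuclear side. Importins and exportins bind cargo through its localisation signal and pass the meshwork, and the small GTPase Ran, loaded with GTP in the nucleus and discharged in the cytoplasm, sets the direction of travel. The basket lies next to the nuclear lamina, the filament layer under the inner nuclear membrane of which lamins A and C are part.

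The libraries held 1846208 to 3242051 UMIs, and the listed genes took 0.643% to 0.748% of them. Lmna, the targeted gene, had 2013, 2170.3 and 2325 normalized counts in the shControl libraries and 964, 933 and 942 in the shLmna libraries, a log2 fold change of -1.20 (SE 0.13) with an adjusted p of 1.9e-05 in edgeR's quasi-likelihood test. A normalized count is the UMI count divided by the scaled library size and multiplied by the mean of those sizes, and log2 fold changes are shLmna over shControl. Of 6 mammary epithelial markers 4 were present, led by Krt8 with 516 to 814 UMIs per library, while Cdh1 and Krt19 were not analysed here. The summed epithelial level, most of it Krt8, was 661 to 802 in the shControl and 715 to 784 in the shLmna libraries. The sum says little of the other markers, and none of the 3 tested passed in edgeR. Epcam was lower in every shLmna library than in any shControl library (log2 fold change -0.90, SE 0.33, adjusted p = 0.0848). Krt18 was at -0.53 (SE 0.42) and Krt8 at 0.074 (SE 0.14), both with overlapping groups. Krt7 was not tested, and its groups overlapped. Of 5 immune markers Cd68 alone was present (10 to 34 UMIs), of 3 endothelial markers Pecam1 alone (2 to 7 UMIs), and the 3 fibroblast markers present summed to 14.8 to 21.4 against 22.8 to 29.1. None of the 5 proliferation markers tested passed the test.

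A pair of libraries stood apart. The melanocyte markers Mlana, Tyrp1, Dct and Pmel had 205, 428, 271 and 450 UMIs in shControl replicate 3 and 316, 461, 306 and 499 UMIs in shLmna replicate 2, against 0 to 8 UMIs each in the other 4 libraries. The study also worked with B16F10 melanoma cells. Each group holds 1 such library, and the main results below are therefore given with all libraries, without this pair, and with a term in the model for the presence of these markers, both of the latter chosen after the markers were seen. Between this pair and the other 4 libraries, 0 of the 48 tested members differed at an adjusted p below 0.05. Of all 8969 genes 177 did (1.97%), in edgeR's fit with the marker term. At an unadjusted p below 0.05 in that fit were 11 of the 48 members, beside 1491 of the 8969 genes. Nup210, which encodes a membrane-spanning nucleoporin, had 0, 0 and 9 UMIs in the shControl and 0, 5 and 0 in the shLmna libraries, so its UMIs fell in this same pair and nowhere else. Neither Nup210 nor the 4 markers had enough counts in enough libraries to be tested, so the fit could not call them. The part of these libraries in any single result was not tested beyond those fits.

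**Figure D1:**
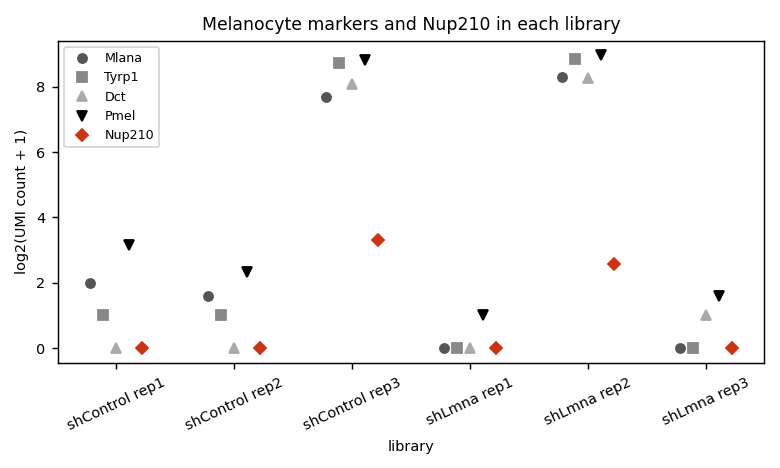
UMI counts on a log2(count + 1) scale (y axis) of 4 melanocyte markers and Nup210 in each of the 6 libraries (x axis), 1 point per gene and library. All 5 genes were high in shControl replicate 3 and shLmna replicate 2, where Nup210 had 9 and 5 UMIs, and Nup210 had 0 in the other 4.

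Most nuclear pore and transport genes differed little between shControl and shLmna cells, and the few that passed the test went in both directions. Of the 48 members tested, 4 had an adjusted p below 0.05: Ranbp2 and Kpna3 rose, and Tnpo3 and Ipo5 fell. That is 8.33% of the members, beside 13.9% of all genes tested (7.96% higher and 5.94% lower in shLmna cells). By the criteria of the study, which also ask for a log2 fold change beyond 1 in size and a mean normalized count above 5, Ranbp2 and Kpna3 were called, 4.17% of the members, beside 5.63% of all genes (3.88% higher and 1.75% lower). Ranbp2 and Kpna3 passed the filter on low counts through their shLmna counts alone. Genes that pass in this way had to differ, so their calls here and below are descriptions. Without the libraries that held melanocyte markers 5 members passed, these 4 and Nup205, beside 13.5% of all genes. With the marker term 9 passed, 2 higher and 7 lower (Ipo5, Ipo9, Nup205, Nup85, Nup93, Rcc1 and Tnpo3), beside 21.3% of all genes. DESeq2 called 5 (Rcc1 in addition, beside 11.5% of all genes) and limma-voom 5 (Nup93 in addition, beside 14% of all genes). The count turned on single libraries. It was 10 without shControl replicate 3 (beside 17.7% of all genes), 8 without shLmna replicate 1 (10.6%), 3 without shControl replicate 1 (9.9%) or shControl replicate 2 (6.65%), which were Ranbp2, Kpna3 and Kpna1, and 2 (Ranbp2 and Kpna3) without shLmna replicate 2 (8.7%) or shLmna replicate 3 (7.77%).

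The normalized counts of the 3 shLmna libraries lay wholly outside the range of the 3 shControl libraries for 16 of the 48 members, 33.3% of them, beside 32.5% of all genes. Of the 48 members, 3 were wholly higher in shLmna cells (Ranbp2, Kpna3 and Nup155), beside 16.8% of all genes. Wholly lower were 13 of the 48, beside 15.7% of all genes. Estimates were below 0 for 35 members and above 0 for 13, so 72.9% lay below, beside 49.6% of all genes. The median log2 fold change of the members was -0.14, beside 0.0033 for all genes, and -0.15 when Ranbp2 and Kpna3 were set aside. Summed over the 54 members present, the normalized counts were 18986, 18831 and 16906 in the shControl and 16465, 15351 and 16242 in the shLmna libraries, so the groups did not overlap, with shControl replicate 3 the lowest of its group. The estimates were fairly tight: the 95% interval stayed within a change of 2-fold for 42 of the 48 members, beside 71.8% of all genes, and within 1.5-fold for 22 of them, beside 29.3% of all genes. Tnpo3 and Ipo5 are among the 42.

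**Figure D2:**
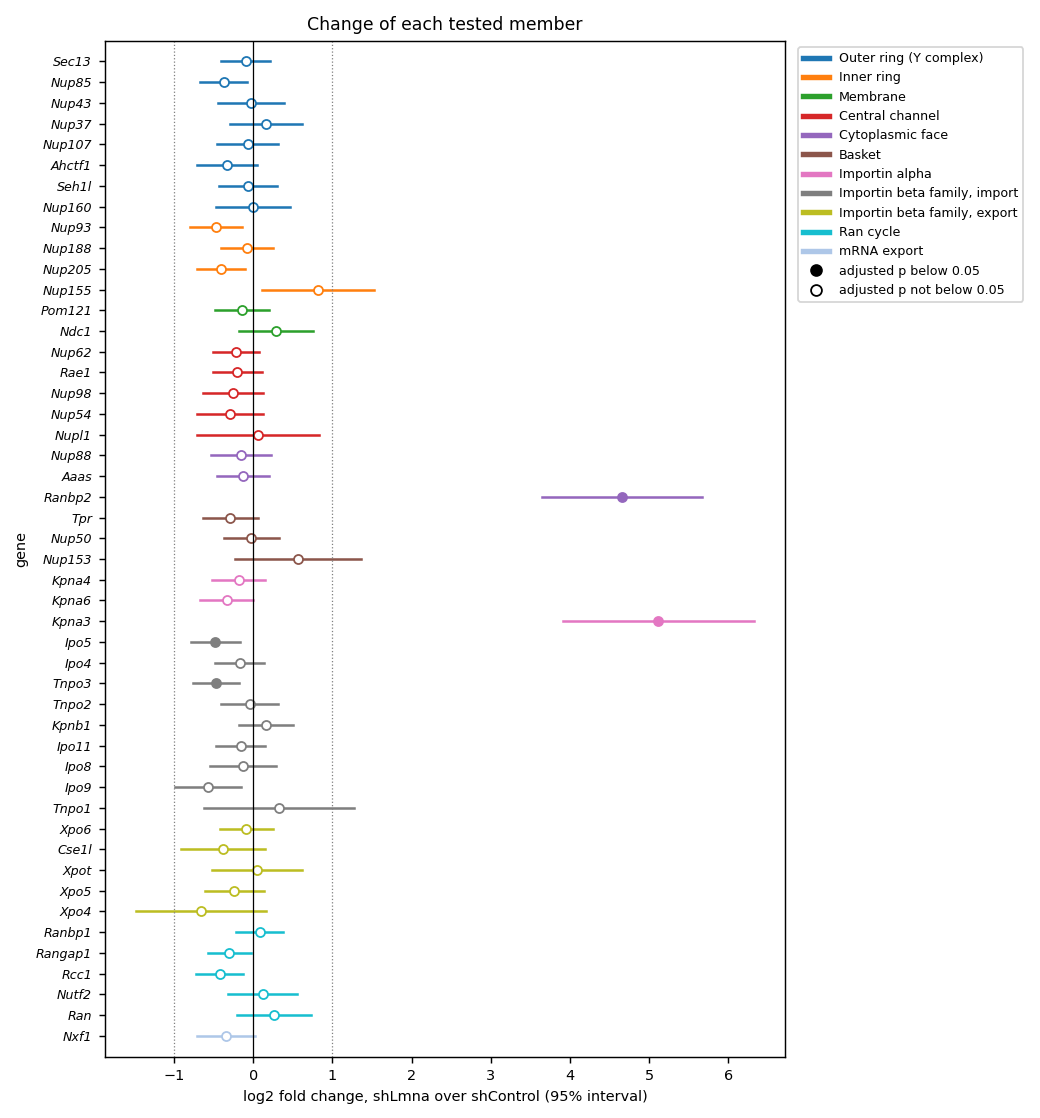
Log2 fold change of each of the 48 tested members (x axis, shLmna over shControl) with its 95% interval as a line, grouped by colour into role classes, with filled points for an adjusted p below 0.05. Ranbp2 at 4.66 and Kpna3 at 5.12 stand far to the right, Tnpo3 and Ipo5 are filled at -0.48, and the other 44 points are open.

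The outer ring, or Y complex, forms the scaffold on both faces of the pore. Its 9 listed genes were all present, 8 were tested and none passed in edgeR, DESeq2 or limma-voom. The class median was -0.071, and 1 gene, Nup85, had an unadjusted p below 0.05 in edgeR, beside 28.3% of all genes. Sec13, a subunit shared with the COPII coat of secretory vesicles, had 1238, 1243 and 1004 normalized counts in the shControl and 1173, 944 and 1155 in the shLmna libraries (log2 fold change -0.093, SE 0.15, adjusted p = 0.726). Its groups overlapped. Nup85 had 889.5, 946 and 735 normalized counts against 669, 656 and 663. All 3 knockdown libraries of Nup85 were below the lowest control library, with a log2 fold change of -0.37 (SE 0.14) and an adjusted p of 0.0901, 0.0551 without the libraries that held melanocyte markers and 0.0340 with the marker term. Ahctf1, also called ELYS, which brings the Y complex to chromatin after mitosis, also had separate groups, with means of 132 ± 18.5 (SD, n = 3) and 103 ± 12.5 and an adjusted p of 0.236. The remaining 5 tested genes, Nup43, Nup37, Nup107, Seh1l and Nup160, had estimates from -0.072 to 0.16 and overlapping groups, and Nup133 had 3 to 7 UMIs in every library, too few for the test.

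The inner ring anchors the central channel to the membrane. None of its 4 tested genes passed in edgeR or DESeq2, and 1, Nup93, passed in limma-voom. Of the 4, 3 had an unadjusted p below 0.05 in edgeR, beside 28.3% of all genes. The same 3 had groups that did not overlap, beside 32.5% of all genes, and they did not go the same way. Nup93, which links the inner ring to the channel nucleoporins, had 677, 608 and 546 normalized counts in the shControl and 515, 378 and 429 in the shLmna libraries, a log2 fold change of -0.47 (SE 0.15) with an adjusted p of 0.0513, 0.0809 without the libraries that held melanocyte markers and 0.00877 with the marker term. Nup205, a large scaffold subunit, had 402, 371 and 351 against 283, 306 and 258, with a log2 fold change of -0.41 (SE 0.14) and an adjusted p of 0.0719. That value was 0.0486 without the libraries that held melanocyte markers and 0.0298 with the marker term. Both genes were outside the threshold with all libraries. Nup93 was inside it with the marker term only and Nup205 in both other fits. Nup155, which contacts the pore membrane, had 12, 17 and 8 UMIs against 20, 20 and 21, higher in every knockdown library, with a log2 fold change of 0.81 (SE 0.33) and an adjusted p of 0.119. Nup188 had 631, 536 and 449 normalized counts against 523, 444 and 565, and its groups overlapped (adjusted p = 0.787).

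The membrane nucleoporins fix the pore in the nuclear envelope. Pom121 had 640.1, 765 and 526 normalized counts in the shControl and 648, 610.2 and 491 in the shLmna libraries (log2 fold change -0.14, SE 0.16, adjusted p = 0.608). Ndc1 had 48.7, 55.9 and 61.9 against 52.1, 80.3 and 70.0 (log2 fold change 0.29, SE 0.22, adjusted p = 0.429). Neither differed beyond the spread between libraries, in edgeR (0 at an unadjusted p below 0.05), DESeq2 or limma-voom. The counted 3' end of Pom121 lies over that of Nsun5 on the opposite strand for 765 bases, and Nsun5, an RNA methyltransferase gene, fell with a log2 fold change of -0.72 (SE 0.15, adjusted p = 0.00522). Whether counting used the strand is not given in the sources used here, so reads of this pair cannot be told apart. Shorter overlaps, from 12 bases (Nxf1 with Tmem223) to 304 bases (Tpr with Prg4), were found on the opposite strand for Nup88 (Rabep1), Ipo4 (Rec8), Tpr, Ipo11 (Gm28989) and Tnpo3 (Irf5), and on the same strand for Ahctf1 (Kif28), Ranbp1 (Gm49776) and Nxf1. Of these partners Rabep1 had 48 to 81 UMIs per library, Irf5 3 to 17 and Tmem223 0 to 11.

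The channel nucleoporins carry the repeats that receptors bind, save Rae1, which was classed with its partner Nup98. The 5 genes had a median of -0.22 and none passed in edgeR (0 at an unadjusted p below 0.05), DESeq2 or limma-voom. Nup62, the core of the channel trimer, had 604, 670.4 and 601 normalized counts in the shControl and 569.8, 528 and 515 in the shLmna libraries (log2 fold change -0.22, SE 0.14, adjusted p = 0.316), and Rae1, which binds Nup98 and takes part in mRNA export, had 422, 426 and 391 against 402, 313 and 362 (-0.20, SE 0.15, adjusted p = 0.388). The groups of Nup62 did not overlap and those of Rae1 did. Nup54, a partner of Nup62 in the trimer, had separate groups as well, with means of 72.2 ± 9.84 (SD, n = 3) and 59.3 ± 1.20 and an adjusted p of 0.360. A processed pseudogene, Gm15790, matches 330 bases of its 3' end at 97.6% identity, so the value of Nup54 is uncertain. The pseudogene has no counts of its own here. Nup98 and Nupl1, whose symbol is now Nup58, had estimates of -0.25 and 0.060 and overlapping groups.

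On the cytoplasmic face, Ranbp2 was close to absent from the shControl libraries and present in all shLmna libraries. Ranbp2 (chr10:58446920-58494356, plus strand, GRCm38), also called Nup358, is the main protein of the cytoplasmic filaments, binds Ran and is a SUMO E3 ligase. It had 4, 2 and 0 UMIs in the shControl and 41, 59 and 50 in the shLmna libraries, or 1.82 ± 1.96 (SD, n = 3) and 52.7 ± 14 normalized counts. The lowest knockdown library was far above the highest control library. The log2 fold change was 4.66 (SE 0.48, 95% interval 3.64 to 5.67) with an adjusted p of 1.0e-05, and the summed UMIs gave a ratio of 26.2 (exact 95% interval 11.8 to 72.6, counting error only). Ranbp2 entered the test through its shLmna counts alone, since no shControl library reached the 10 counts the filter asks for, and genes that pass in this way had to differ. With no filter its estimate was 4.65 (adjusted p = 3.9e-06). That fit does not lift the selection, since the deposited table holds only genes that reach 6 UMIs in some library. Ranbp2 reached this in shLmna libraries alone. The estimate was 4.23 (adjusted p = 1.6e-06) without the libraries that held melanocyte markers, 4.65 with the marker term, and 4.25 to 5.56 when any 1 library was dropped. The gene was called in all of these fits. Nup88, which holds Nup214 at the filaments, had 227, 324 and 344 normalized counts against 223, 302 and 280.1 (adjusted p = 0.621), and Aaas, also called ALADIN, had 284, 219.8 and 239 against 228, 216 and 233 (adjusted p = 0.613). Both had overlapping groups, and Nupl2, with 4 to 10 UMIs per library, was not tested. The summed level of the cytoplasmic face was 556 ± 38.4 (SD, n = 3) in shControl and 553 ± 52.3 in shLmna libraries.

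The start of Ranbp2 is shown because it is the nucleoporin gene with the largest change. The RefSeq sequence of GRCm38.p6 from 250 bases before to 50 bases after the transcript start is given 5' to 3'. It lies at chr10:58446602-58446901 on the plus strand and is 60.0% G or C. The window ends before 58446920, the gene start given above, as these come from different annotations. Capitals mark matches to the letters of a TATA box (TATAAA) and an E box (CACGTG), without regard to their distance from the start.
Ranbp2: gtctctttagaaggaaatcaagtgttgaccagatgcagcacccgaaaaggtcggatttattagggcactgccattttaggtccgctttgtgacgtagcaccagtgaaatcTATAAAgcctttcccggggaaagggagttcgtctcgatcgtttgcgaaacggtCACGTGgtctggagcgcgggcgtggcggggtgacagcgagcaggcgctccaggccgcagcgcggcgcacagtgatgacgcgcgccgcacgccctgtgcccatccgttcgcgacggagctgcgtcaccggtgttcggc
A TATAAA match on either strand was found in 13.6% of 32851 promoters of this length and in 8.77% of 57 promoters of 48 listed genes, and a CACGTG match in 7.15% and 15.8%. The window holds no GGGCGG or CGGAAG on either strand.

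The basket reaches into the nucleoplasm. Tpr, its main filament protein, had 349, 423 and 436 normalized counts in the shControl and 360.3, 369 and 255 in the shLmna libraries (log2 fold change -0.29, SE 0.17, adjusted p = 0.276). Nup50, a mobile basket protein that helps release import cargo, had 197, 144 and 166 against 164, 171 and 162 (log2 fold change -0.027, SE 0.16, adjusted p = 0.941). Nup153, which binds the lamina, had 8, 20 and 16 UMIs against 16, 25 and 21 (log2 fold change 0.56, SE 0.38, 95% interval -0.23 to 1.36, adjusted p = 0.354). The 3 genes had overlapping groups, and 0 passed in any of the 3 tools or had an unadjusted p below 0.05 in edgeR. For Nup153 the interval takes in both a decrease and a large increase, so these counts cannot place its change.

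Taken over the 25 tested nucleoporins, 1 rose and 0 fell in edgeR and DESeq2 (Nup93 fell in limma-voom), with a median log2 fold change of -0.093 and 19 estimates below 0. At an unadjusted p below 0.05 were 5 of the 25, beside 28.3% of all genes. The 23 tested transport factors held 1 that rose and 2 that fell, beside 13.9% of all genes, with a median of -0.17.

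Importin alpha proteins read the classical nuclear localisation signal and bridge cargo to importin beta 1. Kpna3 (chr14:61365211-61439874, minus strand), which encodes importin alpha 4, rose from near 0. It had 1, 1 and 2 UMIs in the shControl and 27, 78 and 40 in the shLmna libraries, or 1.46 ± 1.02 (SD, n = 3) and 49.7 ± 23.2 normalized counts. Every shControl library was at or under 3 UMIs, and the knockdown libraries, though all higher, spread from 25.1 to 71.1 normalized counts, with replicate 1 the lowest. The ratio of summed UMIs was 38.0 (exact 95% interval 14.5 to 142, counting error only). The fitted log2 fold change was 5.12 (SE 0.57), a value that depends on the prior count with so few control UMIs, with an adjusted p of 2.3e-05. As for Ranbp2, the gene passed the filter through its shLmna counts alone, and with no filter the estimate was 5.11 (adjusted p = 1.5e-05). The 6 UMIs needed to be in the deposited table were also reached in shLmna libraries alone. Leaving out the libraries that held melanocyte markers gave 5.27 (adjusted p = 4.6e-06), the marker term 5.01, and dropping any 1 library 4.73 to 5.65.

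Kpna1, the gene of importin alpha 5, was outside the filter on low counts and is named here after its values were seen. It had 1, 1 and 2 UMIs in the shControl and 8, 18 and 21 in the shLmna libraries, a ratio of summed UMIs of 12.3 (exact 95% interval 4.51 to 47.1, counting error only), or 18.3 without the libraries that held melanocyte markers. The deposited table holds only genes that reach 6 UMIs in some library, and Kpna1, like Ranbp2, Kpna3 and Xpo1, reached that in shLmna libraries alone. With no filter its adjusted p was 0.00202 in edgeR and 0.00286 in DESeq2, and 5 of 54 members then passed in edgeR, beside 12.3% of 10520 genes. As with Kpna3, every knockdown library was above every control library and knockdown replicate 1 was the lowest of its group. Kpna2, the gene of importin alpha 1, had 0, 0 and 5 UMIs against 8, 1 and 0, and its 3' end has 6 near-identical copies, such as Gm10184 at 100% identity over 994 bases, so its level is uncertain. The more abundant members moved less: Kpna4 had 209, 264 and 257 normalized counts against 193, 219.8 and 233 (log2 fold change -0.18, SE 0.16, adjusted p = 0.489), and Kpna6 had 176, 158 and 183 against 136, 129.5 and 145 (-0.33, SE 0.16, adjusted p = 0.179). The groups of Kpna6 did not overlap. Summed over the 5 genes, the level was 421 ± 32.2 (SD, n = 3) in shControl and 422 ± 47.0 in shLmna libraries.

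**Figure D3:**
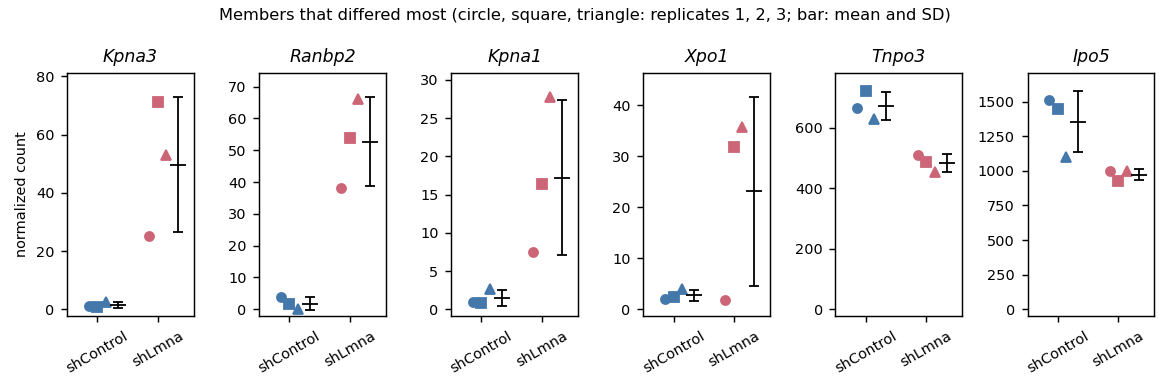
Normalized counts (y axis, from 0, with a scale of its own in each panel) of 6 members in the shControl (blue) and shLmna (red) libraries, 1 symbol per replicate, with the mean and SD as a bar. Kpna3, Ranbp2 and Kpna1 were near 0 in every control library, Xpo1 was near 0 in the controls and in shLmna replicate 1, and Tnpo3 and Ipo5 were lower in every knockdown library.

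Among the import receptors of the importin beta family, Tnpo3 and Ipo5 fell and 7 others did not pass. That is 22.2% of the 9 tested, beside 13.9% of all genes called (5.94% lower in shLmna cells). Tnpo3 (transportin-SR; chr6:29540827-29609887, minus strand) carries serine- and arginine-rich splicing factors into the nucleus. It had 663, 722 and 629 normalized counts in the shControl and 510.2, 485 and 452 in the shLmna libraries, a 1.39-fold decrease with a log2 fold change of -0.48 (SE 0.14) and an adjusted p of 0.0284. All knockdown libraries were below all control libraries. The adjusted p was 0.0332 without the libraries that held melanocyte markers and 0.00711 with the marker term, but 0.0534 without shControl replicate 1, 0.135 without shControl replicate 2, 0.0798 without shLmna replicate 2 and 0.109 without shLmna replicate 3. The estimate stayed between -0.53 and -0.42 through these. The counted ends of Tnpo3 and Irf5 overlap by 211 bases on opposite strands, and Irf5 had 3 to 17 UMIs per library and an adjusted p of 0.793, so it is far below Tnpo3 in UMIs.

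Ipo5 (importin 5; chr14:120911224-120947999, plus strand) imports ribosomal proteins and core histones. It had 1511, 1449 and 1101 normalized counts in the shControl and 998, 924 and 996 in the shLmna libraries, a 1.39-fold decrease with a log2 fold change of -0.48 (SE 0.15) and an adjusted p of 0.0397. The groups did not overlap, but shControl replicate 3, 1 of the libraries with melanocyte markers, was nearer to the knockdown libraries than its fellow controls were. The adjusted p was 0.0174 without both such libraries and 0.00724 with the marker term. It was 0.132 without shControl replicate 1, 0.165 without shControl replicate 2, 0.0700 without shLmna replicate 1, 0.121 without shLmna replicate 2 and 0.105 without shLmna replicate 3, with estimates between -0.62 and -0.40. For both genes the direction held with any library left out, and the call did not.

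The starts of these importin genes are shown beside each other because they were the members that fell. Both are RefSeq sequences of GRCm38.p6 with 250 bases before and 50 after a transcript start, given 5' to 3' on the gene's strand. Tnpo3 is at chr6:29609800-29610099 on the minus strand, with 56.7% G or C and 3 ETS core motifs (CGGAAG, or CTTCCG on the other strand) in capitals. Ipo5 is at chr14:120910944-120911243 on the plus strand, with 80.7% G or C, and its capitals mark 4 GC boxes (GGGCGG or CCGCCC) and 2 CCAAT boxes.
Tnpo3: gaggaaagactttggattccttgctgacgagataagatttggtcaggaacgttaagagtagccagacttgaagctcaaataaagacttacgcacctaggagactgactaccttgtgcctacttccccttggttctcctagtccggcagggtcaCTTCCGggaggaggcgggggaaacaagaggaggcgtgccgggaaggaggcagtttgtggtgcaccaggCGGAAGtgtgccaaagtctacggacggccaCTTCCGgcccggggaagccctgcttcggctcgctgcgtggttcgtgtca
Ipo5: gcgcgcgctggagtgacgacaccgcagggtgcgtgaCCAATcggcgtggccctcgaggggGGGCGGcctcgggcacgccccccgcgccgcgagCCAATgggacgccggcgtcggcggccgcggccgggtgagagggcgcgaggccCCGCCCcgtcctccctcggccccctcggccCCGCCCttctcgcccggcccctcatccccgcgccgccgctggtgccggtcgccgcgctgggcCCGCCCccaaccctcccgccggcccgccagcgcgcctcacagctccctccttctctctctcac
The printed Ipo5 start is 1 of 2 in the RefSeq table. The other, at chr14:120915597-120915896, is 37.7% G or C and holds a TATAAA match but 0 GC boxes and 0 CCAAT boxes, so the make-up given for Ipo5 depends on the start chosen. Matches to CGGAAG were found in 36.8% of the promoters of listed genes and 16.9% of all promoters, to GGGCGG in 64.9% and 35.7%, and to CCAAT in 42.1% and 37.4%. The median GC content was 64.0% in promoters of listed genes and 52.7% in all. These are matches of letters on both strands, promoters of 1 gene can overlap, and GGGCGG and CGGAAG can share their CGG.

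The other import receptors ranged from a lower to a slightly higher estimate. Ipo9, which imports histones and actin, had 90.6, 103 and 92.3 normalized counts against 75.4, 63.8 and 51.5, separate groups with a log2 fold change of -0.57 (SE 0.20) and an adjusted p of 0.0660, 0.112 without the libraries that held melanocyte markers and 0.0330 with the marker term. Ipo11 had separate groups at a smaller distance, with means of 259 ± 19.3 (SD, n = 3) and 233 ± 8.63. Ipo4, an importer of histones and ribosomal proteins, had 782, 663 and 577 against 620.1, 554 and 625 (log2 fold change -0.17, SE 0.15, adjusted p = 0.486). Kpnb1, importin beta 1, is the partner of every importin alpha, and its estimate was 0.16 (SE 0.16, 95% interval -0.18 to 0.50, adjusted p = 0.569), with means of 242 ± 42.0 and 270.5 ± 20.4. Its interval leaves no room for a change of 1.5-fold either way. Tnpo2, Ipo8 and Tnpo1 had estimates of -0.044, -0.13 and 0.32 with overlapping groups, and Tnpo1 rested on 5 to 11 UMIs per library.

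None of the 5 tested exportins passed in edgeR (0 at an unadjusted p below 0.05), DESeq2 or limma-voom, and the sixth, Xpo1, was split within the knockdown group. Xpo1 (CRM1) exports proteins with a leucine-rich signal, a role every cell needs. It had 2, 3 and 3 UMIs in the shControl and 2, 35 and 27 in the shLmna libraries, so knockdown replicate 1 was at the level of the controls and the other two were far above it. The ratio of summed UMIs was 8.40 (exact 95% interval 4.01 to 20.3, counting error only), and 7.33 without the libraries that held melanocyte markers. Xpo1 was outside the filter. With no filter its adjusted p was 0.0887 in edgeR and 0.00533 in DESeq2, so the call differed between the tools, and it is named after its values were seen.

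Xpo6, which exports actin, had 464, 431 and 320.3 normalized counts in the shControl and 369.6, 369 and 408 in the shLmna libraries (log2 fold change -0.089, SE 0.16, adjusted p = 0.763). Cse1l (CAS), which returns importin alpha to the cytoplasm, had 282, 385 and 467 against 181, 371 and 317 (-0.38, SE 0.25, adjusted p = 0.343). The SD of Cse1l within each group was larger than the difference between the group means. Xpot, the exporter of tRNA, had an estimate of 0.045, Xpo5, the exporter of microRNA precursors, -0.24, and Xpo4, with 7 to 23 UMIs per library, -0.67 with a wide 95% interval of -1.49 to 0.15.

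The Ran cycle keeps the gradient that drives transport. Ranbp1, a cytoplasmic cofactor of Ran hydrolysis, had 1956, 1828 and 1761 normalized counts in the shControl and 2222, 1752 and 1885 in the shLmna libraries (log2 fold change 0.080, SE 0.14, adjusted p = 0.761). Rangap1, which makes Ran hydrolyse its GTP, had 1697, 1668 and 1564 against 1294, 1333 and 1375 (-0.30, SE 0.13, adjusted p = 0.136). Its 3 knockdown libraries were all below the controls. Rcc1, which loads Ran with GTP on chromatin, had 864, 833 and 763 against 686, 587 and 561, with separate groups and a log2 fold change of -0.42 (SE 0.14) at an adjusted p of 0.0539, 0.0767 without the libraries that held melanocyte markers and 0.0165 with the marker term. Ran itself had 52, 84 and 60 UMIs against 76, 74 and 72 (log2 fold change 0.26, SE 0.22, adjusted p = 0.486), and Nutf2 (NTF2), which returns Ran to the nucleus, had an estimate of 0.12 and 4 near-identical copies in the genome, such as Nutf2-ps1 at 100% identity over 868 bases, which make it uncertain. The median of the 5 genes was 0.080. None passed in edgeR or limma-voom, and Rcc1 passed in DESeq2. Rangap1 and Rcc1, 2 of the 5, had an unadjusted p below 0.05 in edgeR, beside 28.3% of all genes. Nxf1, the main export receptor of mRNA, had 890.5, 738 and 551 normalized counts against 649.9, 503 and 561 (log2 fold change -0.35, SE 0.17, adjusted p = 0.197), and its groups overlapped.

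**Figure D4:**
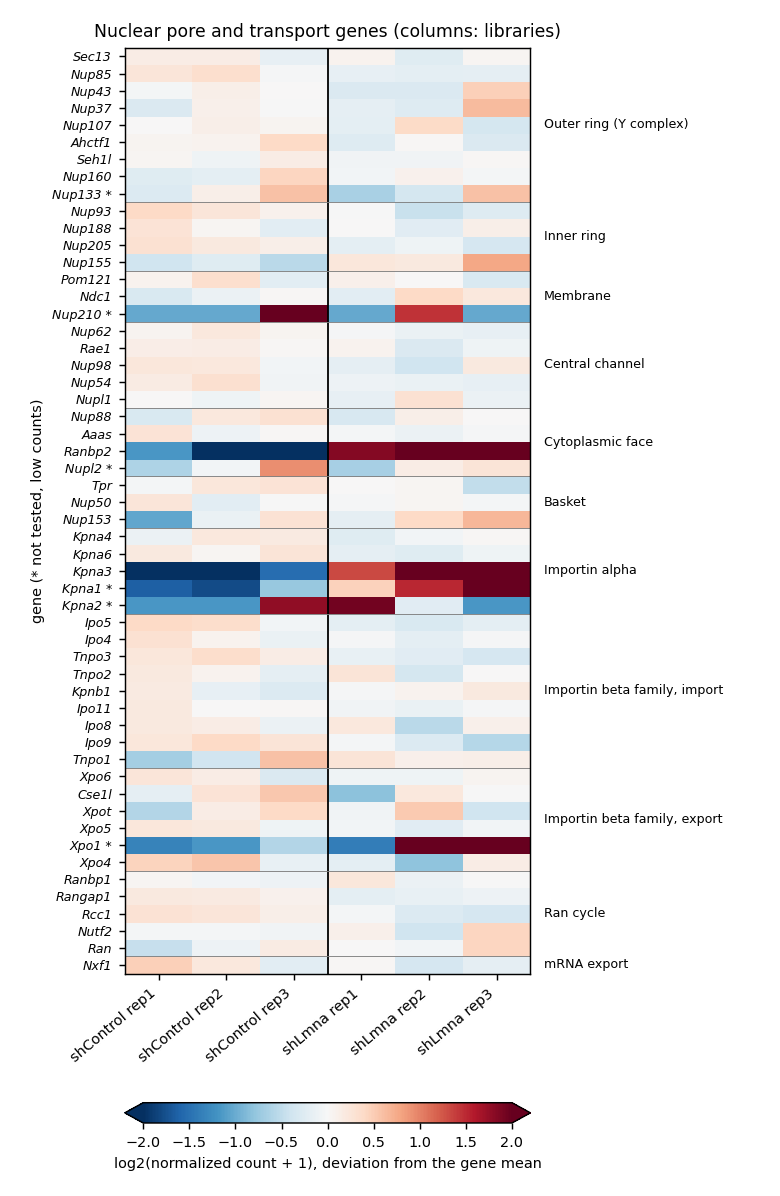
Each row is 1 of the 54 members present and each column 1 library. Colour gives the log2(normalized count + 1) as its deviation from the gene's mean over the 6 libraries, red higher and blue lower, with colour full at 2 in size, and an asterisk marks the 6 genes not tested. Strong colour is limited to a few genes with low counts, Ranbp2, Kpna3, Kpna1, Xpo1, Kpna2 and Nup210, and the other rows are pale.

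The counted 3' ends of the 2 members that rose were poor in G and C. The GC content of the last 1000 bases was 34.1% for Ranbp2 and 35.6% for Kpna3, beside a median of 44.0% over the tested members and 47.1% over all genes. In the lowest 10% of all genes (under 37.1%) were 6 members, Nup153, Ranbp2, Tnpo1, Nup155, Kpna3 and Nup160, of which 5 had estimates above 0, with a median log2 fold change of 0.69. The other 42 members had a median of -0.16, and 8 of them had estimates above 0. Genes in general followed the same order: the 891 genes in this range had a median of 0.30, with 19.98% of them rising and 1.796% falling at an adjusted p below 0.05, against 6.65% and 6.39% of the other 8042. Across the 48 members the correlation of log2 fold change with GC content was -0.42 (Pearson) and -0.28 (Spearman), and -0.31 and -0.18 over 46 without Ranbp2 and Kpna3, beside -0.19 and -0.13 over 8933 genes. All points share the same 6 libraries, so these are descriptions.

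With a correction of each library for its trend with GC content, the same 4 members were called, beside 16.9% of all genes. Ranbp2 was then at 4.12 (adjusted p = 2.1e-05), Kpna3 at 4.70 (1.6e-05), Tnpo3 at -0.45 (0.0273) and Ipo5 at -0.61 (0.0181). Kpna1 and Xpo1 had GC contents of 39.4% and 42.0%, both below the median of the members. The part of base composition in the result was not tested further.

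**Figure D5:**
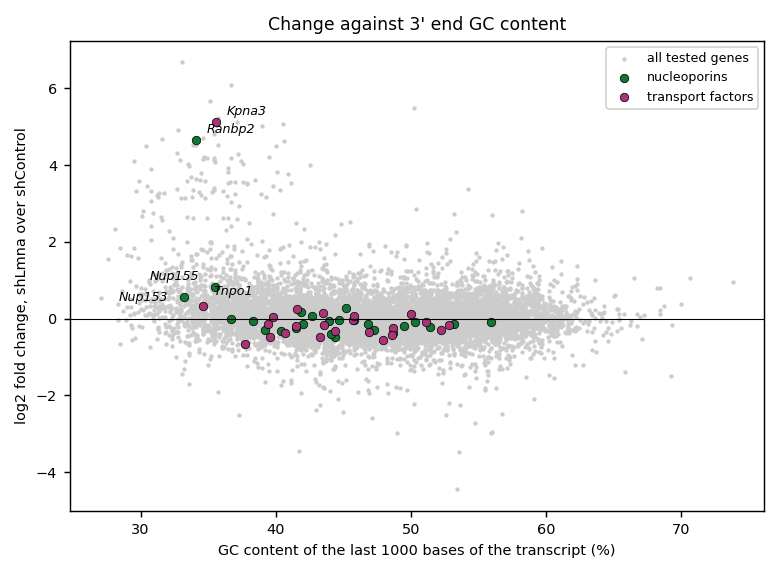
Log2 fold change, shLmna over shControl (y axis), against the GC content of the last 1000 bases of the transcript in percent (x axis), for all tested genes (grey), nucleoporins (green) and transport factors (purple). Ranbp2 and Kpna3 lie at the left, at 34.1% and 35.6% GC, among other genes with large positive values, while the members above 37.1% GC lie between -0.67 and 0.29.

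Genes of nuclear transport outside the listed members were read from a second list of 34, of which 29 were present and 25 tested. Of these, 3 fell and 1 rose, beside 13.9% of all genes called (5.94% lower and 7.96% higher). Estimates were below 0 for 21 of the 25, beside 49.6% of all genes, with a median log2 fold change of -0.27. Nmd3, the adaptor that brings the large ribosomal subunit to Xpo1, had 512, 659 and 594 normalized counts in the shControl and 348, 374 and 424 in the shLmna libraries (log2 fold change -0.63, SE 0.15, adjusted p = 0.0103). Phax, the adaptor for export of small nuclear RNA, had 312, 362 and 353 against 257, 244 and 248 (-0.45, SE 0.14, adjusted p = 0.0453), and Zc3hc1, a basket-associated protein, had 424, 428 and 411 against 360.3, 270.0 and 283 (-0.47, SE 0.15, adjusted p = 0.0495). Each of the 3 had separate groups. Senp2, a SUMO protease that binds the pore, had 17, 37 and 18 UMIs against 53, 46 and 33 (log2 fold change 0.95, SE 0.26, adjusted p = 0.0230). Nmd3 alone passed in DESeq2, beside 11.5% of all genes. The adjusted p in DESeq2 was 0.0513 for Phax, 0.0537 for Zc3hc1 and 0.0572 for Senp2. Phax lost its edgeR call whichever library was left out (adjusted p 0.0501 to 0.174). The others each lost it in some of these fits, with an adjusted p of up to 0.0745 for Nmd3, 0.109 for Senp2 and 0.187 for Zc3hc1. The count of 4 was 3 without the libraries that held melanocyte markers, beside 13.5% of all genes. With the marker term it was 7, beside 21.3% of all genes. It was 2 without shControl replicate 1 (9.9%), shControl replicate 2 (6.65%) or shLmna replicate 2 (8.7%), and 1 without shLmna replicate 3 (7.77%).

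The 4 genes of this second list outside the filter had few UMIs and are given as a description, named after their values were seen. Nxt2, a cofactor of mRNA export receptors, had 1, 1 and 1 UMIs in the shControl and 10, 17 and 11 in the shLmna libraries. Thoc2, a subunit of the THO complex that couples transcription to export, had 0, 0 and 0 against 6, 7 and 6, and Ranbp6, an importin 5 relative, had 0, 1 and 1 against 6, 5 and 3. These 3 are in the table only because a shLmna library reached 6 UMIs, and a gene as low in both groups would not be in it. Their higher level there therefore cannot be read as a test result. The part of this selection in it was not tested. Their 3' ends held 29.7%, 34.4% and 35.1% G or C. Tmem33 had 2, 5 and 1 against 0, 8 and 5 and overlapping groups.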

How the data were processed

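RNA of 3 shControl and 3 shLmna E0771 libraries was measured by MARS-seq. Per the study's methods, the authors trimmed reads with cutadapt, mapped them to mm10 with STAR 2.4.2a, and counted UMIs with a modified HTSeq-count over a window from 1000 bases inside the RefSeq gene end to 100 bases past it. The deposited table holds these raw UMI counts for 10520 genes, each reaching at least 6 in some library, so genes with fewer were left out before deposit. Priming near the 3' end means that a transcript ending elsewhere, or a shared end, is missed or misassigned. The authors' deposited log2 values, normalized and corrected with ComBat, and their DESeq2 comparison (mean normalized counts, log2 fold changes, p-values and adjusted p-values) were not used.

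Groups and replicate numbers came from the sample descriptions. edgeR 4.0.16 (R 4.3.3) was run on the counts: filterByExpr at a minimum of 10 chose the genes, TMM factors scaled the libraries, and groups were compared by the quasi-likelihood test with robust estimation and Benjamini-Hochberg adjustment over 8969 genes. DESeq2 1.42.0 and limma 3.58.1 (voom) were alternatives, with other scalings and filters, thinning to the smallest library, a GC correction (loess, span 0.3, degree 2), a replicate block and each library left out. Normalized counts are not divided by length, since 3' ends were counted. The members, role classes and lists were chosen with earlier results of these data known. Named were every member with an adjusted p below 0.05, the 2 members with the highest mean in each class, Lmna, and the other transport genes that passed; genes named beyond this rule were chosen after their values were seen. Libraries were taken to hold melanocyte markers above 100 UMIs of them.

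Same-numbered libraries of the groups deviated from their group means with correlations of 0.35, -0.11 and 0.0052, so the numbers were not taken to pair them. No pair of replicates agreed within sampling noise (chi-square per degree of freedom 5.36 to 8.42). Tested on simulated data of the comparison with 200 changed genes among 8913, edgeR recovered 99.0% with 15 false calls. The recovered share applies to the sizes of change that were simulated. It cannot be read as the sensitivity for changes as small as the 1.39-fold decreases of Tnpo3 and Ipo5. Intervals of UMI ratios are exact binomial and cover counting error only. GC content came from GENCODE M21 (GRCm38), matched for 10468 genes, 323 by an older symbol. Copies of 3' ends were searched with BLAST+ 2.17.0 (at least 95% identity over 100 bases), and promoters were from RefSeq (GRCm38.p6). Plots used Python 3.11.15 and matplotlib 3.10.9.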

Additional observations from a re-analysis of the deposited data

How the results depend on the processing

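The count of 4 members with an adjusted p below 0.05 was 4 to 6 with upper-quartile or RLE scaling, without the filter, in DESeq2 and limma-voom, after thinning and with the GC correction. Of all genes 11.5% to 16.9% were called in these fits. The count was 2 with genes of a mean count of at least 50 (beside 13.6% of all genes), where Ranbp2 and Kpna3 are not tested. It was 9 with the melanocyte-marker term (21.3%), added after seeing the data. At an adjusted p below 0.01 it was 2, and the share of all genes at that threshold is not given. With 1 library left out it was 2 to 10, beside 6.65% to 17.7% of all genes. The members called by the criteria of the study numbered 2 (beside 5.63% of all genes), but 0 at a mean count of at least 50, and 2 to 4 with 1 library left out. The count of 4 other transport genes was 1 in DESeq2 (beside 11.5% of all genes) and 2 at a mean count of at least 50 (13.6%). It was 7 with the marker term (21.3%), and 1 to 6 with 1 library left out (6.65% to 17.7%). The median log2 fold change of the members was -0.19 to -0.11 with 1 library left out, each value less than 1 SD between libraries (0.0606) from the -0.14 with all of them, and Lmna stayed between -1.26 and -1.15. As the replicate numbers did not pair the libraries, the replicate block is given here only. With it 6 members passed (Nup93 and Rcc1 in addition), beside 15% of all genes (1347). The members' median was then -0.14 and Lmna was at -1.19. With the replicate block and GC correction 6 members passed (Nup93 and Cse1l in addition, Cse1l at an adjusted p of 0.0421), beside 15.9% of all genes. Lmna was then at -1.17. Of 519 values for 29 named genes under 18 alternatives, 466 kept direction and side of the threshold, 33 lost the call, 12 gained it and 8 changed sign, all 8 close to 0: Sec13 to 0.0035 without shLmna replicate 2 (-0.20 to 0.0035 over the libraries left out), Nup188 to 0.035 without shControl replicate 1 and 0.013 without shLmna replicate 2 (-0.20 to 0.035), Nup50 to 0.0073 with the GC correction, 0.016 with the block added and 0.087 without shControl replicate 1 (-0.14 to 0.087), Xpo6 to 0.0054 without shControl replicate 1 (-0.24 to 0.0054), and Ranbp1 to -0.038 without shLmna replicate 1 (-0.038 to 0.15). The causes were not tested, save that fewer genes or libraries enter some fits. Depth limits members with few UMIs, such as Nup153, Tnpo1 and Xpo4, whose intervals take in changes of 2-fold.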
